A study of Arabidopsis thaliana with 96 samples.

Results

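In sorted root cells of Arabidopsis thaliana, 7 of 13356 measured genes, ribosomal protein genes left out, were at least 1.5 higher on the log2 scale after 48 h of salt than after 48 h on standard medium in all 4 cell types, while in no cell type were they more than 0.5 higher after 1 h of salt than after 1 h on standard medium. Chosen by these measured values at 1 h and 48 h, the genes are UBC20, AT3G17160, AT1G08580, AT1G19380, AT5G04120, AT1G58420 and AT2G43620. Values at those times are therefore given below as a description. Tests compared only the means of the salt arrays of 3, 8, 20 and 32 h, which the choice did not use. The spread behind each p-value was pooled over all groups, including the 1 h and 48 h arrays that chose the genes. The p-values are therefore not fully independent of the choice. The choice also favours genes that rise between 1 and 48 h, so rises at the times between are partly built in. In the salt arrays of 3, 8, 20 and 32 h the 7 genes did not share 1 course. Between 3 and 32 h UBC20 was called higher in all 4 cell types, AT3G17160 in 3 of them and AT1G08580 in the cortex. For none of these was the change shown to differ between cell types. AT5G04120 stepped up between 8 and 20 h in all 4 types, and AT1G19380 rose by 8 h in endodermis and stele. AT1G58420 and AT2G43620 were highest at 8 h in 3 of the 4 cell types and were not called higher at 32 h than at 3 h in any, so a late common rise does not describe this pair.

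Transcripts were measured on 96 Affymetrix ATH1 arrays of cells of the Columbia ecotype, taken as protoplasts from seedling roots 5 to 7 days after germination and sorted by a green fluorescent protein (GFP) reporter. The epidermis came from the WER::GFP line, the cortex from COR::GFP, the endodermis from SCR::GFP, and the stele, which is the vascular core, from WOL::GFP. Roots went onto medium holding 140 mM NaCl for 1, 3, 8, 20, 32 or 48 h, or kept on standard medium without added NaCl for 1 or 48 h, with 3 arrays for each of the 32 groups. Reporter line and sort go with the cell type and cannot be separated from it, and every group, standard ones included, went through protoplasting and sorting. The groups analysed here include no standard arrays at 3, 8, 20 or 32 h. Levels are the deposited log2 values, so a difference of 1 is 2-fold. In sorted bulk samples, fewer cells of a type within the sort and less RNA per cell cannot be told apart.

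Roots meet salt first as an osmotic stress that draws abscisic acid signalling within hours, and then as ion stress as sodium builds up in the tissue. Proteins are turned over throughout by the ubiquitin pathway, in which an activating enzyme, a conjugating enzyme and a ligase pass ubiquitin to a target. UBC20 is annotated as a ubiquitin-conjugating enzyme, and it is related to the conjugating enzymes that serve the anaphase-promoting complex in animals and yeast, which marks cell-cycle proteins for breakdown. The other 6 genes carry only gene codes in the annotation used here and are described by their codes. Of the 7, 4 lie on chromosome 1 (AT1G08580, AT1G19380, UBC20, which is AT1G50490, and AT1G58420), and the others lie on chromosomes 2, 3 and 5. Each was read by 1 probe set that pairs with no other gene.

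The 1 h limit removed most candidates. At 48 h, 104 genes (0.779% of the 13356) were at least 1.5 higher in all 4 cell types. Of those 104, the 1 h limit kept 24 in epidermis, 33 in stele, 47 in cortex and 86 in endodermis. In all 4 types together it kept 9 genes (0.0674%), of which AT5G39850 and AT5G67510 were left out as ribosomal protein genes. JRG21 and AT4G38410, which the choice also leaves out by name, were past the 1 h limit already. AT1G08580 lay closest inside the 48 h threshold, with a smallest difference of 1.52, followed by AT5G04120 at 1.62. AT4G23670 and AT2G14460 lay just outside it, both at 1.49. Closest inside the 1 h limit were AT2G43620 at 0.47 and AT1G08580 at 0.43, and closest outside, ribosomal protein genes aside, were AT1G29250 at 0.63 and AT4G27380 at 0.65.

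**Figure D1:**
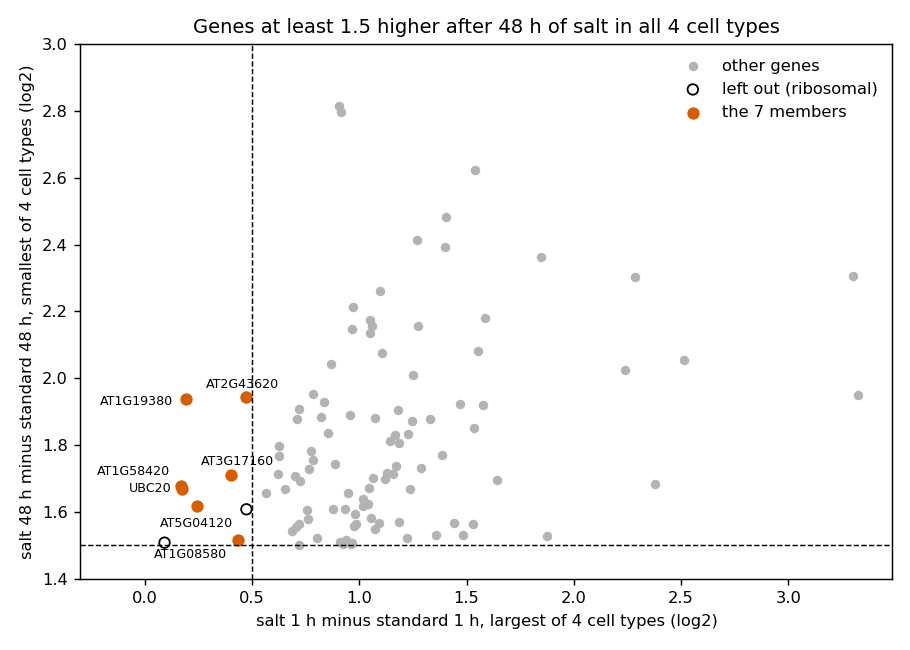
Each point is 1 of the 104 genes at least 1.5 higher (log2) in salt 48 h than in standard 48 h arrays of all 4 cell types. The horizontal axis is the largest of the 4 differences of salt 1 h minus standard 1 h, the vertical axis the smallest of the 4 differences of salt 48 h minus standard 48 h, both in log2 units, and dashed lines mark the thresholds of 0.5 and 1.5. Most points lie to the right of the 1 h limit, and the 7 genes described here (orange) lie to its left.

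Array medians lay between 4.51 and 4.97, and no 2 arrays held identical values. Looked at more closely were replicates 1 and 3 of the epidermis after 48 h on standard medium and replicate 3 of the stele after 1 h on standard medium. In that stele array 6 of the 7 genes were at their group's highest level, the most of any array of the 1 h and 48 h groups, where others reached up to 5. For AT1G58420 it read 7.41, against 6.01 and 4.34 in the other two arrays, and for AT3G17160 it read 7.69, against 4.98 and 5.63. Without this array only AT2G43620 and AT5G04120 met the rule, since the lower stele mean at 1 h put the others past the 1 h limit. Leaving out either epidermal array kept 6 of the 7 genes, losing AT1G58420 without replicate 1 and UBC20 without replicate 3. Without replicate 1 of the epidermis after 1 h of salt, 11 genes met the rule, these 7 among them.

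Over the 7 genes and 4 cell types, which make 28 series, salt 48 h minus standard 48 h was 1.52 to 3.10 (median 1.98), as the rule required. The 1 h limit set no lower bound, and salt 1 h minus standard 1 h was -1.35 to 0.47 (median -0.02). Lowest were AT5G04120 (-1.35) and AT2G43620 (-1.25), both in the stele. The standard groups themselves differed, since standard 48 h minus standard 1 h was -2.47 to 0.48 (median -0.41). Against standard 1 h in place of standard 48 h, the 48 h salt arrays were higher by 0.13 to 2.67 (median 1.48), and 21 of the 28 differences were at least 1. AT2G43620 was lower at 48 h than at 1 h on standard medium in every cell type, with differences of -1.06 in epidermis, -1.17 in cortex, -1.76 in endodermis and -2.47 in stele. In the stele its salt 48 h level was 2.77 above standard 48 h but only 0.30 above standard 1 h. AT5G04120 in the stele gave 1.96 against standard 48 h and 0.13 against standard 1 h. For UBC20 and AT3G17160 the means of the standard groups lay within 0.48 of each other in every cell type, and either mean gave a 48 h difference of at least 1.57. In the stele this rests on the standard 1 h array that stands apart, since UBC20 read 6.04, 5.16 and 5.66 at standard 48 h, against 4.63, 5.23 and 6.78 at standard 1 h, the last being that array. The comparisons of a cell type with its standard groups share 6 standard arrays.

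**Figure D2:**
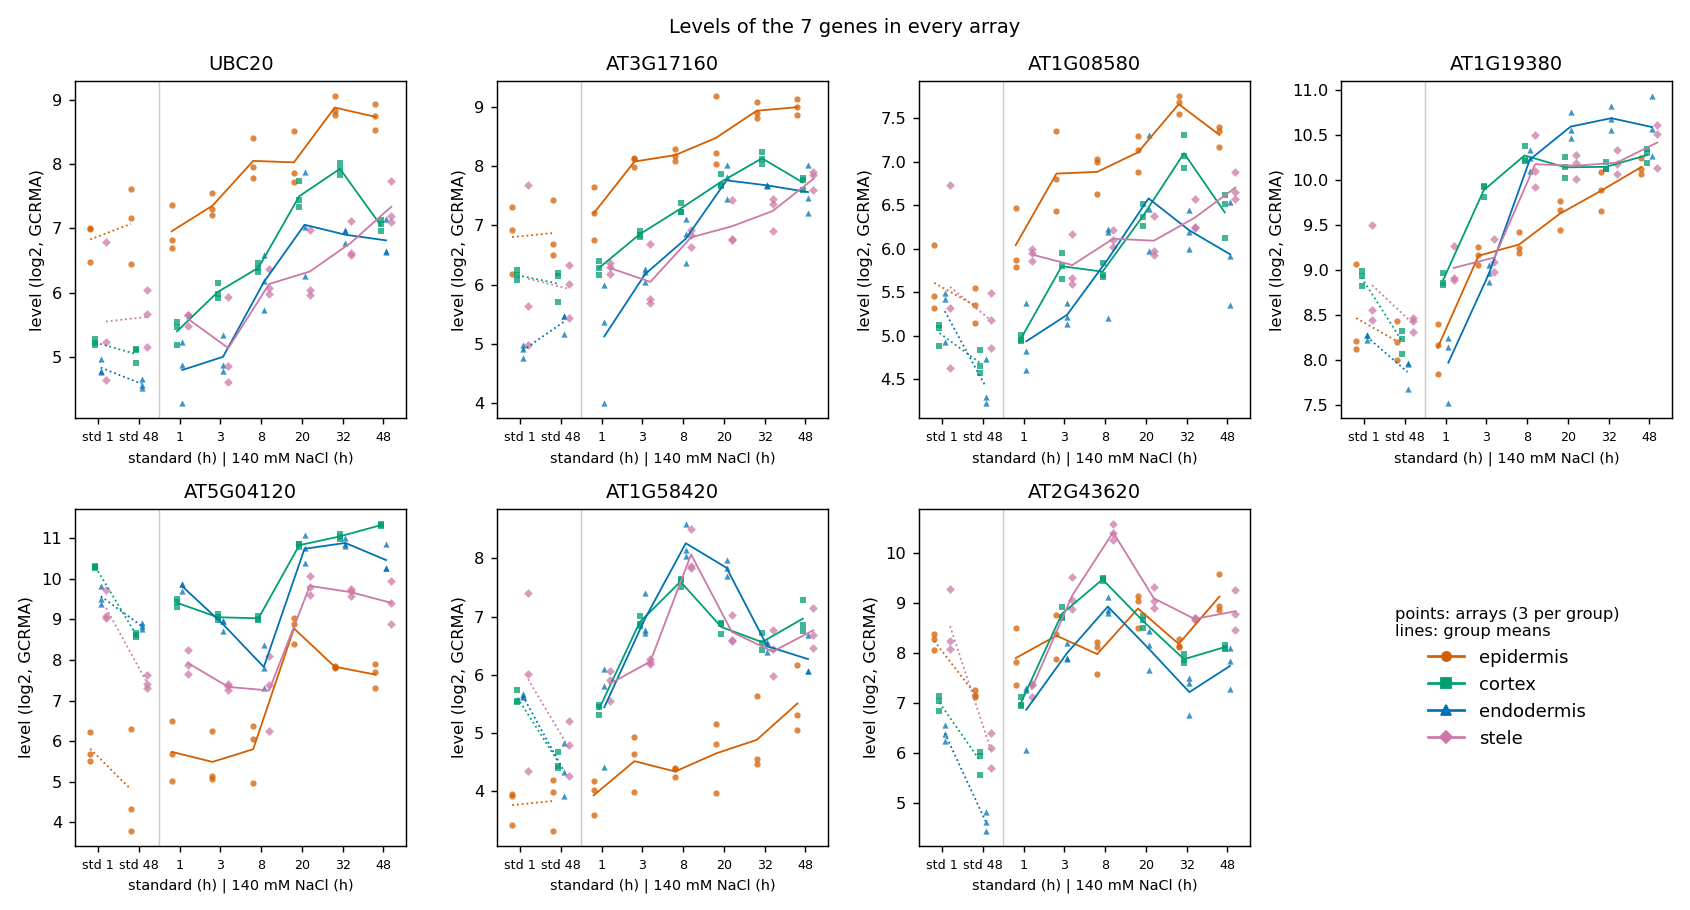
Level of each of the 7 genes (log2, vertical axis) in every array, with standard medium at 1 and 48 h at the left of each panel and 140 mM NaCl at 1, 3, 8, 20, 32 and 48 h to the right. Points are single arrays (3 per group), lines join group means, and colours and shapes mark the cell types. UBC20 is higher at 32 h than at 3 h in all 4 cell types, AT5G04120 steps up between 8 and 20 h in all 4 cell types, and AT1G58420 and AT2G43620 are highest at 8 h in cortex, endodermis and stele.

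Whether the genes went on changing within the salt treatment was tested by setting salt 32 h against salt 3 h in each cell type. A gene was called where limma's adjusted p was under 0.05 and the change was at least 1, over 7281 genes with a mean of 5 or more in at least 1 group. All 7 genes passed that filter, also when the salt 48 h groups were left out of it. The count called higher was 2 of 7 in the epidermis, where 1.65% of all tested genes were called higher, and 4 of 7 in the cortex (4.89% of all). It was likewise 4 of 7 in the endodermis (6.15% of all) and 4 of 7 in the stele (4.81% of all). No gene of the 7 was called lower, against 2.57%, 3.21%, 3.31% and 2.98% of all tested genes in the same order of cell types. At an unadjusted p under 0.05, AT2G43620 was lower in both cortex and endodermis, and no other member was. The share of all genes at that unadjusted cut was not counted, so such counts, here and below, have no background beside them. The median change of the 7 genes was 0.80 in epidermis, 1.28 in cortex, 1.5 in endodermis and 1.05 in stele, beside medians of all tested genes of -0.03, 0.03, 0.09 and 0.03. Because the rule favours genes that rise between 1 and 48 h, counts and medians above those of all genes are partly built in. They are no independent support for a late rise. Each p-value uses 1 spread per gene, pooled over all 32 groups. A gene's standard error is therefore the same in every cell type. For AT5G04120 it was 0.33, although group SDs at 3 h were 0.07 in the cortex and 0.65 in the epidermis. The labels do not say whether replicates came from separate plantings, so this spread between arrays may be technical.

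**Figure D3:**
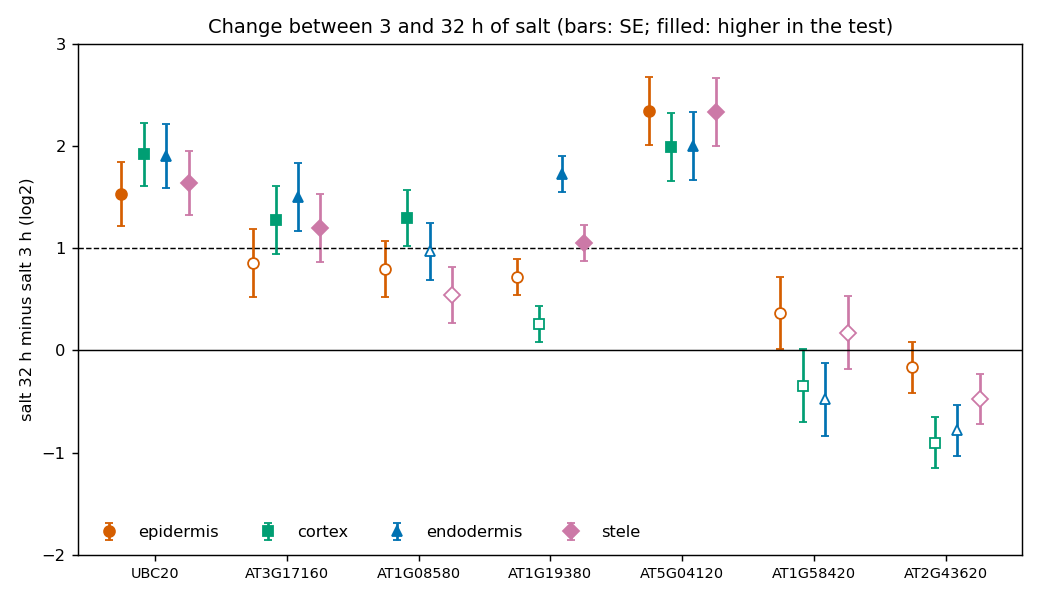
Salt 32 h minus salt 3 h (log2, vertical axis) for each of the 7 genes (horizontal axis) in the 4 cell types, with bars for the standard error of the fit and 3 arrays per group. Filled symbols are changes called higher, the dashed line marks the minimum change of 1, and 14 of the 28 changes are filled. UBC20 and AT5G04120 are filled in all 4 cell types, and AT1G58420 and AT2G43620 in none.

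UBC20, the ubiquitin-conjugating enzyme, rose between 3 and 32 h in every cell type. In the epidermis its levels were 8.83, 8.76 and 9.06 at 32 h, against 7.21, 7.30 and 7.56 at 3 h. In the cortex they were 8.03, 7.92 and 7.84 at 32 h, against 6.15, 5.91 and 5.97 at 3 h. The 3 arrays of 32 h lay above the 3 arrays of 3 h in both outer layers. In the endodermis they were 6.77, 6.97 and 6.97 at 32 h, against 5.34, 4.88 and 4.77 at 3 h. In the stele they were 7.11, 6.58 and 6.62 at 32 h, against 5.93, 4.85 and 4.61 at 3 h. The arrays of the 2 times did not overlap in either inner type. The changes were 1.53 in epidermis (adjusted p = 0.000169), 1.92 in cortex (adjusted p = 1.79e-06), 1.90 in endodermis (adjusted p = 1.02e-06) and 1.64 in stele (adjusted p = 2.63e-05), each with a standard error of 0.31.

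The time of the highest UBC20 mean differed between cell types. In the cortex, group means over 1, 3, 8, 20, 32 and 48 h of salt were 5.39 ± 0.19, 6.01 ± 0.12, 6.39 ± 0.07, 7.50 ± 0.21, 7.93 ± 0.09 and 7.05 ± 0.09 (SD, n = 3 each), beside 5.22 ± 0.05 and 5.04 ± 0.12 in standard medium at 1 and 48 h. In the stele the same salt means were 5.59 ± 0.10, 5.13 ± 0.71, 6.13 ± 0.20, 6.33 ± 0.56, 6.77 ± 0.30 and 7.34 ± 0.34. The cortex thus had its highest mean at 32 h and the stele at 48 h, while the endodermis had it at 20 h (7.06 ± 0.82) and the epidermis at 32 h (8.88 ± 0.15). Between neighbouring times only 2 steps of UBC20 were called, 8 h against 3 h in the endodermis (1.16, SE 0.31, adjusted p = 0.00843) and 20 h against 8 h in the cortex (1.12, SE 0.31, adjusted p = 0.0199). With 1 array left out the first was not called in 2 of 6 cases (0.95 to 1.38) and the second in 5 of 6 (1.00 to 1.20).

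AT3G17160 followed UBC20 most closely. Levels in the endodermis were 7.67, 7.68 and 7.67 at 32 h, against 6.22, 6.05 and 6.26 at 3 h, a rise of 1.5 (SE 0.33, adjusted p = 0.000229). In the cortex they were 8.23, 8.05 and 8.12 at 32 h, against 6.90, 6.84 and 6.81 at 3 h, a rise of 1.28 (adjusted p = 0.00187). Neither pair of groups overlapped. In the stele the 32 h arrays read 7.45, 7.37 and 6.91, against 6.69, 5.76 and 5.68 at 3 h, a rise of 1.20 (adjusted p = 0.00431). The epidermis read 8.82, 8.91 and 9.09 at 32 h, against 8.13, 8.12 and 7.99 at 3 h, and its change of 0.86 was not called (adjusted p = 0.0603), although its arrays did not overlap either. No step between neighbouring salt times was called for this gene in any cell type. In the endodermis 20 h minus 8 h was 0.98, just under the minimum change (SE 0.33, adjusted p = 0.0358), with no overlap of the arrays and a call in 2 of the 6 omissions of 1 array, and 32 h minus 20 h was -0.08. In the endodermis its means over 1, 3, 8, 20, 32 and 48 h of salt were 5.13 ± 1.02, 6.18 ± 0.11, 6.78 ± 0.38, 7.76 ± 0.30, 7.68 ± 0.01 and 7.56 ± 0.41 (SD, n = 3 each), beside 4.89 ± 0.11 and 5.37 ± 0.17 in standard medium at 1 and 48 h.

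AT1G08580 was called higher in the cortex alone, with smaller differences elsewhere. The moderated F test of the interaction did not show that its change differed between cell types (adjusted p = 0.41). In the cortex it read 7.30, 6.93 and 7.06 at 32 h, against 5.95, 5.65 and 5.80 at 3 h, a rise of 1.30 (SE 0.28, adjusted p = 0.000196). In the endodermis it read 5.99, 6.20 and 6.45 at 32 h, against 5.37, 5.13 and 5.22 at 3 h, a difference of 0.97 that missed the minimum change (adjusted p = 0.00361). Levels in the epidermis were 7.75, 7.55 and 7.68 at 32 h, against 6.43, 6.80 and 7.36 at 3 h, a difference of 0.80 (adjusted p = 0.0326). The arrays of 32 h were above those of 3 h in all of these. In the stele it read 6.58, 6.26 and 6.24 at 32 h, against 6.17, 5.59 and 5.67 at 3 h, a difference of 0.54 (adjusted p = 0.132), with the lowest 32 h array just above the highest 3 h array. With 1 array left out the endodermal change was called in 2 of 6 cases (0.85 to 1.08) and the epidermal change in 1 of 6 (0.58 to 1.05). None of its steps between neighbouring times was called.

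AT5G04120 had the largest rises of the 7 genes among the tested salt times, and its called rise came in 1 step, from 8 to 20 h. In the epidermis it read 9.05, 8.39 and 8.90 at 20 h, against 4.98, 6.06 and 6.38 at 8 h, a rise of 2.97 (SE 0.33, adjusted p = 1.67e-09). In the cortex it read 10.85, 10.85 and 10.78 at 20 h, against 8.98, 9.01 and 9.09 at 8 h, a rise of 1.80 (adjusted p = 9.87e-05). Every 20 h array was above every 8 h array in both types. In the endodermis it read 10.76, 10.39 and 11.07 at 20 h, against 7.31, 7.81 and 8.37 at 8 h, a rise of 2.91 (adjusted p = 1.06e-09). In the stele it read 9.80, 9.61 and 10.07 at 20 h, against 8.11, 7.39 and 6.25 at 8 h, a rise of 2.58 (adjusted p = 1.51e-08). These groups did not overlap either.

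Before that step AT5G04120 lay below the mean of its standard groups in 3 of the 4 cell types at 8 h. Salt 1 h minus standard 1 h was already -1.35 in stele and -0.88 in cortex, beside -0.07 in epidermis and 0.24 in endodermis. In the stele its mean was 9.28 at standard 1 h and 7.45 at standard 48 h. After salt its mean there was 7.93 at 1 h, 7.25 at 8 h and 9.83 at 20 h. Part of its stele step was thus a return to the standard 1 h level. In the endodermis it fell by 1.05 at 8 h relative to 3 h (SE 0.33, adjusted p = 0.0298), a call that was lost in 4 of the 6 omissions of 1 array (-1.32 to -0.79). Salt 8 h minus the mean of the 2 standard groups was -1.38 in endodermis, -1.12 in stele and -0.43 in cortex, but 0.49 in epidermis. The standard groups differ for this gene, and in the cortex all 8 h arrays (8.98, 9.01 and 9.09) were above the standard 48 h arrays (8.57, 8.68 and 8.62) and below the standard 1 h arrays (10.26, 10.29 and 10.31). Between 20 and 32 h no change was called. In the epidermis 32 h minus 20 h was -0.94 (SE 0.33, adjusted p = 0.043), under the minimum change, with every 32 h array below every 20 h array. At 32 h the arrays read 11.04, 11.11 and 10.99 in cortex, 10.80, 10.86 and 11.00 in endodermis, 9.69, 9.58 and 9.75 in stele and 7.82, 7.84 and 7.85 in epidermis. At 3 h they had read 8.98, 9.13 and 9.05 in cortex, 8.73, 8.95 and 8.97 in endodermis, 7.26, 7.35 and 7.41 in stele and 5.08, 6.24 and 5.15 in epidermis. The rise at 32 h over 3 h was 2.35 in epidermis, 1.99 in cortex, 2.00 in endodermis and 2.34 in stele (SE 0.33, adjusted p at most 4.14e-06). In standard medium its 48 h mean was lower than its 1 h mean in all 4 types, at 8.62 ± 0.06 after 48 h against 10.29 ± 0.02 after 1 h in the cortex (SD, n = 3 each).

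AT1G19380 rose earlier, and its change from 3 to 32 h differed between cell types. In the endodermis it read 10.68, 10.56 and 10.82 at 32 h, against 9.05, 8.86 and 8.97 at 3 h, a rise of 1.73 (SE 0.18, adjusted p = 2.07e-12). In the stele it read 10.33, 10.06 and 10.18 at 32 h, against 9.34, 9.09 and 8.98 at 3 h, a rise of 1.05 (adjusted p = 3.3e-06). Most of this had been reached by 8 h, since 8 h against 3 h was already called higher in the endodermis (1.26, adjusted p = 3.47e-07) and in the stele (1.04, adjusted p = 8.38e-06), and no later step was called. The epidermis read 9.66, 9.88 and 10.09 at 32 h, against 9.25, 9.06 and 9.16 at 3 h, a difference of 0.72 under the minimum change (adjusted p = 0.00227). The cortex read 10.12, 10.12 and 10.20 at 32 h, against 9.93, 9.80 and 9.92 at 3 h, a difference of 0.26 that was not called (adjusted p = 0.271). The cortex was already highest of the 4 at 3 h, with 9.89 ± 0.07 (SD, n = 3), against a mean of 8.88 at 1 h of salt. Means at 3 h and 1 h were 9.16 and 8.14 in epidermis, 8.96 and 7.97 in endodermis and 9.14 and 9.02 in stele. A change counted from 3 h thus leaves out what had risen before, and 3 h against 1 h was not tested. At 48 h of salt the means were 10.14 in epidermis, 10.27 in cortex, 10.59 in endodermis and 10.42 in stele. In the stele each call was lost in 2 of the 6 omissions of 1 array, with 0.98 to 1.16 for 32 h against 3 h and 0.87 to 1.16 for 8 h against 3 h.

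AT1G58420 was highest at 8 h in 3 cell types. In the stele it read 8.50, 7.86 and 7.84 at 8 h, against 6.27, 6.22 and 6.18 at 3 h, a rise of 1.84 (SE 0.36, adjusted p = 6.26e-05). At 20 h it read 6.60, 6.57 and 7.03 there, a fall of 1.33 relative to 8 h (adjusted p = 0.00739). In the endodermis it read 8.15, 8.59 and 8.04 at 8 h, against 7.41, 6.72 and 6.77 at 3 h, a rise of 1.30 (adjusted p = 0.0111). The endodermal fall came later, with 6.53, 6.56 and 6.38 at 32 h, against 7.83, 7.98 and 7.70 at 20 h, a change of -1.35 (adjusted p = 0.0097). The rise in the endodermis was lost in 3 of the 6 omissions of 1 array (1.13 to 1.52) and the fall in the stele in 1 of 6 (-1.48 to -1.12).

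Over the whole interval no change of AT1G58420 was called. At 32 h it read 6.71, 6.54 and 6.43 in the cortex, against 6.87, 6.84 and 7.01 at 3 h, a change of -0.35. In the stele it read 6.77, 6.44 and 5.98 at 32 h, against 6.27, 6.22 and 6.18 at 3 h, a change of 0.17. In the endodermis the 3 h arrays given above stood over the 32 h arrays (-0.48), and none of these changes was called. The epidermis was lower than the other types, with 4.55, 4.45 and 5.62 at 32 h, against 3.98, 4.92 and 4.63 at 3 h, and its highest mean came at 48 h (5.50 ± 0.59, SD, n = 3). All epidermal means before 48 h were under 5, the minimum used to filter genes.

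AT2G43620 had a similar course at higher levels. In the stele it read 10.26, 10.57 and 10.39 at 8 h, against 9.52, 9.05 and 8.88 at 3 h, a rise of 1.26 (SE 0.25, adjusted p = 8.96e-05). At 20 h it read 8.90, 9.32 and 9.04 there, a fall of 1.32 relative to 8 h (adjusted p = 8.63e-05). The endodermis read 9.12, 8.80 and 8.85 at 8 h, against 8.20, 7.90 and 7.88 at 3 h, a difference of 0.93 under the minimum change (adjusted p = 0.00903). The 8 h arrays were the highest of the tested times in both types and in the cortex, where they read 9.47, 9.44 and 9.49. By 32 h the cortex read 7.97, 7.79 and 7.86, against 8.69, 8.72 and 8.92 at 3 h, a difference of -0.90 (adjusted p = 0.00324). The endodermis read 7.49, 7.39 and 6.76 at 32 h, a difference of -0.78 from 3 h (adjusted p = 0.00926), and the stele read 8.70, 8.65 and 8.69, a difference of -0.47 (adjusted p = 0.146). In these 3 types every 32 h array was below every 3 h array, by less than the minimum change on average. The epidermis read 8.28, 8.14 and 8.11 at 32 h, against 8.38, 8.76 and 7.88 at 3 h, groups that overlap.

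Set beside the mean of the 2 standard groups, this pair was high well before 48 h in cortex, endodermis and stele. Salt 3 h minus the mean of the 2 standard groups was 2.36 in cortex, 2.48 in endodermis and 1.85 in stele for AT2G43620, and 1.85, 1.97 and 0.89 for AT1G58420. At 8 h the same difference was 3.05, 3.41 and 3.11 for AT2G43620 and 2.55, 3.27 and 2.74 for AT1G58420. At 48 h it was 1.69, 2.22 and 1.53 for AT2G43620 and 1.91, 1.27 and 1.43 for AT1G58420, below the 8 h value in each case. In the epidermis the difference was 0.63 at 3 h and 0.27 at 8 h for AT2G43620, and 0.72 and 0.54 for AT1G58420. Only the epidermis had its highest salt mean at 48 h for both genes. The size depends on which standard group is used. In the stele AT2G43620 had a mean of 9.15 at salt 3 h, against 8.53 at standard 1 h and 6.06 at standard 48 h. AT1G58420 there had 6.22, against 5.92 and 4.74. Over all 28 series the highest salt mean fell at 8 h in 6, at 20 h in 5, at 32 h in 7 and at 48 h in 10. These differences carry no test, since the standard arrays also chose the genes.

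The calls were also counted by step, and differences between cell types in a step were not tested. For 8 h against 3 h, none was called higher or lower in the epidermis (0.192% of all genes called higher and 0.522% lower) or in the cortex (1.26% and 1.72%). At an unadjusted p under 0.05, limma gave 1 higher in the epidermis and 2 in the cortex, a cut to which these percentages do not apply. In the endodermis 3 were called higher (AT1G19380, AT1G58420 and UBC20) and 1 lower (AT5G04120), against 1.43% and 0.797% of all genes. In the stele 3 were called higher (AT1G19380, AT1G58420 and AT2G43620), against 3.91% of all genes, and none lower (1.77%). Leaving out 1 array gave 1 to 4 higher in the endodermis, the lowest without replicate 3 of salt 3 h, and 2 to 5 in the stele, the highest without replicate 1 of salt 3 h.

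For 20 h against 8 h, AT5G04120 was called higher in each cell type, beside 1.10% of all genes in epidermis, 1.00% in cortex, 1.70% in endodermis and 2.40% in stele. UBC20 joined it in the cortex, and AT1G58420 and AT2G43620 were lower in the stele (1.85% of all genes). No gene of the 7 was called lower in epidermis (0.989%), cortex (0.961%) or endodermis (1.14%), although 2 in cortex and 1 in endodermis were lower at an unadjusted p under 0.05. Without replicate 2 of the endodermis after 20 h of salt, 4 genes were called higher there, and without replicate 1 after 8 h of salt, 3 were. For 32 h against 20 h, limma called no gene of the 7 higher in any cell type, where 1.09%, 0.357%, 0.426% and 0.206% of all genes were called higher in epidermis, cortex, endodermis and stele. At an unadjusted p under 0.05, 2 were higher in epidermis and 1 in cortex, and none in endodermis or stele. AT1G58420 in the endodermis was the only call lower (1.59% of all genes), and none came in the epidermis (2.24%), cortex (0.728%) or stele (0.398%). Unadjusted, 2 were lower in epidermis, 1 in cortex, 2 in endodermis and none in stele. The percentages of all genes given for these steps belong to the calls and not to the unadjusted counts. Without replicate 2 of the epidermis after 20 h of salt, UBC20 was called higher and AT5G04120 lower in that step.

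**Figure D4:**
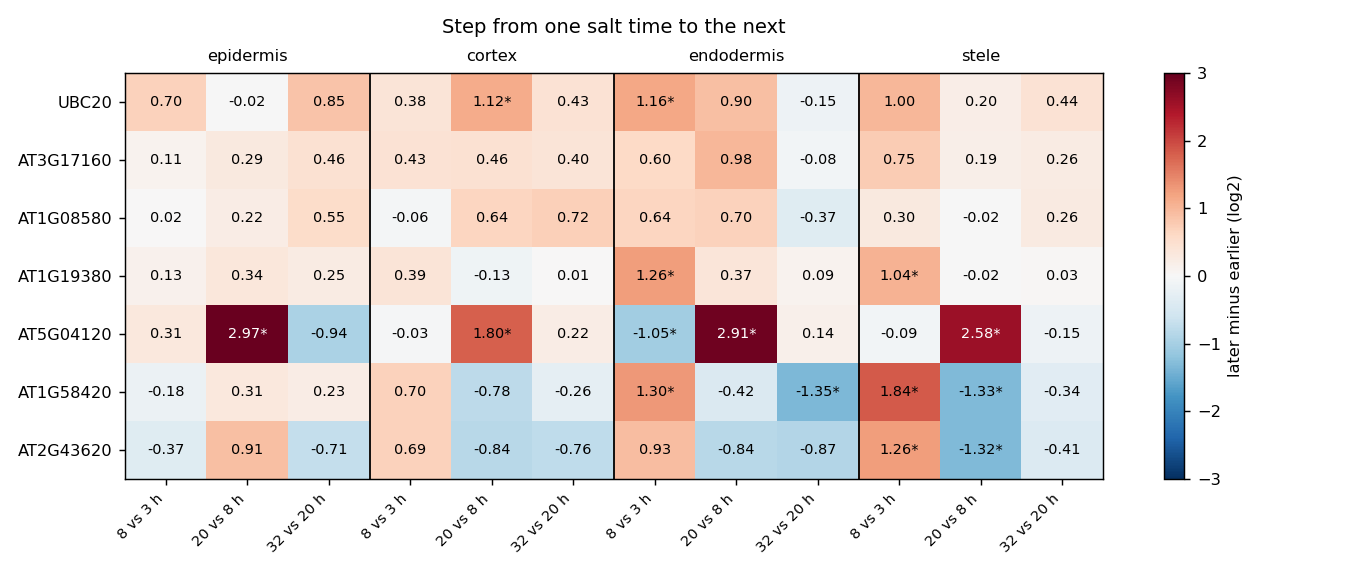
Change between neighbouring salt times (log2, later minus earlier, colour scale and printed value) for each of the 7 genes (rows) and, within each cell type, for 8 h against 3 h, 20 h against 8 h and 32 h against 20 h (columns), with 3 arrays per group. An asterisk marks a change with adjusted p under 0.05 and a size of at least 1. The only row with an asterisk in the same column of all 4 cell types is AT5G04120, at 20 h against 8 h.

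Whether the change at 32 h over 3 h differed between cell types was tested with a moderated F test of the interaction. Of the 7 genes, 1 was called, AT1G19380 (range over cell types 1.47, adjusted p = 5.56e-05), beside 15.4% of all tested genes. The other 6 were not called, with ranges of 0.35 for AT5G04120, 0.39 for UBC20, 0.64 for AT3G17160, 0.74 for AT2G43620, 0.75 for AT1G08580 and 0.84 for AT1G58420. Their adjusted p-values were 0.284 to 0.841. Such p-values do not show that the changes were equal.

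The level at salt 32 h differed between cell types for 6 of the 7 genes, beside 41.4% of all tested genes. AT5G04120 had the widest range, 3.21 (adjusted p = 7.2e-14), with the order epidermis (7.84 ± 0.02), stele (9.67 ± 0.09), endodermis (10.88 ± 0.10) and cortex (11.05 ± 0.06, SD, n = 3 each). Endodermis and cortex overlapped, and the others did not. UBC20 was highest in the epidermis instead. Its epidermis (8.88 ± 0.15) and cortex (7.93 ± 0.09) stood above endodermis (6.90 ± 0.12) and stele (6.77 ± 0.30), a range of 2.11 (adjusted p = 6.46e-09), and only endodermis and stele overlapped. AT3G17160 ran in the same order of cell types over 1.69 (adjusted p = 5.14e-05). AT1G08580 was highest in epidermis and cortex over a range of 1.45 (adjusted p = 5.43e-06). For AT1G58420 the epidermis was lowest (range 1.68, adjusted p = 2.57e-05), and for AT2G43620 the stele was highest and the endodermis lowest (range 1.46, adjusted p = 4.7e-06). AT1G19380 spanned 0.81 and was not called for that reason (adjusted p = 0.000511).

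Likeness between the courses was described by Pearson's r over the 16 group means of salt 3 to 32 h, each centred on its cell type. These means share their arrays between genes, so r is a description with no test. UBC20 and AT3G17160 gave 0.97, UBC20 and AT1G08580 0.93, and AT1G08580 and AT3G17160 0.91. AT1G58420 and AT2G43620 gave 0.87 with each other and 0.01 and -0.38 with UBC20. AT5G04120 gave 0.71 with UBC20 and -0.49 with AT2G43620, the lowest value of all pairs. AT1G19380 lay between, with 0.80 to UBC20 and 0.32 to AT1G58420.

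**Figure D5:**
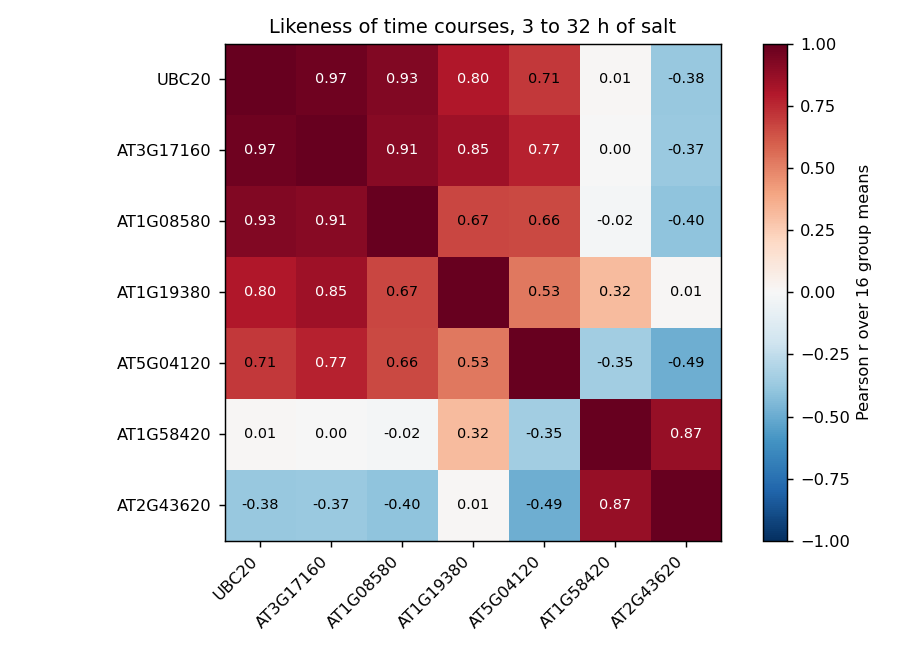
Pearson's r between the salt courses of each pair of the 7 genes (rows and columns), over 16 group means of 3, 8, 20 and 32 h in 4 cell types, each centred on the mean of its cell type. UBC20, AT3G17160 and AT1G08580 form a block of 0.91 to 0.97, and AT1G58420 and AT2G43620 form a pair at 0.87.

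Genes of known salt and stress pathways were counted in the same 32 h against 3 h contrast, without a test against the 7 genes. In the dehydration and cold-regulated list, 5 of 16 genes were tested and none was called higher in any cell type. LEA4-5, a late embryogenesis abundant protein made under water loss, fell in all 4 types, with changes of -3.48 in epidermis, -1.97 in cortex, -1.60 in endodermis and -1.66 in stele (SE 0.29, adjusted p at most 1.06e-05). COR47, a dehydrin, fell in the epidermis, with a change of -1.60 (adjusted p = 1.71e-20). COR15A and COR15B, chloroplast proteins that guard membranes in the cold, fell in the cortex, with changes of -2.97 and -1.25.

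The 9 ATG8 genes, which encode the ubiquitin-like proteins that coat autophagosomes, were all tested and none was called in limma's fit in any cell type, with median changes of -0.17 in epidermis, -0.04 in cortex, -0.20 in endodermis and -0.15 in stele. At an unadjusted p under 0.05, 3 were lower in epidermis, 2 lower and 1 higher in cortex, 4 lower in endodermis and 3 lower in stele. AT5G38710, the 1 tested gene of the proline metabolism list, rose in the cortex (1.02), endodermis (1.31) and stele (1.43) and changed by -0.20 in the epidermis, where it was not called. Of 2 tested genes in the senescence and starvation list, MCCA, a subunit of the carboxylase that breaks down leucine, rose in the cortex by 1.03 (adjusted p = 0.0014). BZIP60, a transcription factor of the unfolded protein response, fell by 1.17 in the endodermis (adjusted p = 9.73e-07). Lists for abscisic acid, jasmonate, sodium transport and antioxidant enzymes had no gene with a single-gene probe set and are not analysed here.

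Markers of cell identity were checked in the same arrays, and those called measured are the ones that the annotation used pairs with a single-gene probe set. Of 4 cortex markers 3 were measured, and at 32 h their summed levels were 18.4 to 18.8 in cortex arrays and 8.79 to 12.6 in arrays of the other types. GSO1, the 1 measured endodermis marker of 10, read 9.67 to 9.73 in the endodermis at 32 h, against 10.2 to 10.8 at 3 h, above every other cell type. It fell in the cortex (-1.62) and in the stele (-1.37). LHW, the 1 measured stele marker of 8, read 5.60 to 5.83 in the stele at 32 h, and 5.06 to 5.75 in the other types. Its 32 h minus 3 h difference was 1.00 in endodermis (SE 0.20, adjusted p = 4.49e-05) and 0.77 in cortex (adjusted p = 0.00175), both under the minimum change. The summed cortex markers read 10.46 to 10.60 in the stele at 32 h, against 9.25 to 9.80 at 3 h, without overlap. EXPA7, an expansin of root hair cells and the 1 measured epidermis marker of 4, did not mark the epidermal sort, where it read 5.83 to 6.52 at 32 h, against 6.80 to 8.02 at 3 h, while the stele read 8.17 to 9.56 at 32 h. It fell by 1.26 in the epidermis (SE 0.46, adjusted p = 0.042). WER, SCR and WOL are not analysed here.

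RNA quality was read from the difference between 3' and 5' control probe sets, which grows as RNA is broken. For GAPDH it was 0.52 ± 0.05 at 32 h against 0.62 ± 0.06 at 3 h in the cortex, and 0.45 ± 0.20 at 32 h against 0.85 ± 0.04 at 3 h in the endodermis (SD, n = 3 each), and neither pair overlapped. It overlapped between times in the epidermis and in the stele. For actin the 32 h arrays were lower by 0.06 in the endodermis, and for ubiquitin higher by 0.09 in the epidermis, without overlap. The part of these markers and of RNA quality in the changes of the 7 genes was not tested.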

How the data were processed

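The deposited values are log2 levels per probe set. Per the submitters' processing notes they came from Affymetrix Expression Console with GCRMA, a method that models background from probe sequence before normalizing, and no version is given. Signal counts and detection calls were not used here, so the number of arrays limits the precision. Probe sets that pair with 1 gene in the platform annotation were kept (13513 of 22810, 8730 being unlisted), with the highest mean per gene, giving 13356 genes. Of these, 13286 took their names from TAIR10.1. The array annotation names no build, so no coordinates are given. Ribosomal protein genes were recognised by gene code.

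Groups were compared in R 4.3.3 with limma 3.58.1 (lmFit and eBayes, 96 arrays, 1 mean per group, 64 residual degrees of freedom), with Benjamini-Hochberg adjustment over 7281 genes, tested on simulated data. F tests had 3 degrees of freedom. The genes and lists were chosen with earlier results of these data known. Every one of the 7 genes is named, with array values printed for selected groups and every array plotted in the figure of levels. Of each list up to 3 called genes are named. Replicate numbers were checked as pairs: the correlation of deviations between same-numbered arrays was -0.42 to 0.55 over 48 pairs, with 10 above 0.1. In none of the 16 contrasts were all pairs above 0.1, and the numbers were not treated as pairs in the main fit. Arrays of different numbers were not compared, so a planting or batch shared by some arrays was not tested. Alternatives were other scalings, filters, priors, thresholds, the cell type's arrays alone, a replicate block and each array left out. Standard 1 h in place of standard 48 h was added after the data were seen.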

Additional observations from a re-analysis of the deposited data

Results flagged for a closer look

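AT1G19380 is the 1 gene of the 7 whose change at salt 32 h over 3 h differed among the 4 cell types in limma's test of the interaction, with a range of 1.47 (adjusted p = 5.56e-05). The change was 1.73 in the endodermis, 1.05 in the stele, 0.72 in the epidermis and 0.26 in the cortex (SE 0.18, 3 arrays per group). The 32 h arrays were above the 3 h arrays in all 4 cell types. The change is counted from 3 h, when the cortex mean was already 9.89, against 8.88 at 1 h of salt, while the stele read 9.14 and 9.02.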

How the results depend on the processing

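No result changed direction where it was called. The 7 genes depend on the rule's threshold: 22 genes met it at a 48 h difference of at least 1 and 0 at 2, and with 1 array left out 2 to 11 did. Quantile normalization gave 7 genes, 5 of the same, and median centring 6, also 5 of the same. The replicate block changed none of the 126 changes and 42 counts, for example 4 genes higher in the cortex at 32 h over 3 h with it and without it.

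With the adjusted p alone and no minimum change, 17 of 126 single changes gained a call. Only the 16 of 42 counts that moved most are listed, so smaller gains are left out, such as AT1G08580 in the endodermis for 32 h over 3 h. The share of all genes called at this looser threshold is not given here. Genes of the 7 called higher were 4 for 32 h over 3 h, 2 for 20 h over 8 h and 1 for 32 h over 20 h in the epidermis, and 3 for 20 h over 8 h in the endodermis. Genes called lower were 2 for 32 h over 20 h in epidermis, 1 for each of 32 h over 3 h and 20 h over 8 h in cortex, 1 for each of the same in endodermis, and 2 for 32 h over 20 h there. Pathway genes called lower were 6 in epidermis, 7 in cortex, 8 in endodermis and 5 in stele, and called higher 2 in endodermis and 2 in stele. Median centring gave 0 pathway genes higher in the cortex and 1 of the 7 lower in the endodermis at 20 h over 8 h. A mean of at least 5 over all arrays left 1 pathway gene lower in the cortex, since fewer genes were tested. With the stele's arrays alone, 1 of the 7 was lower there at 20 h over 8 h. Where values moved otherwise, the cause was not tested.

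With 1 array left out, genes of the 7 called higher were 1 to 2 in epidermis, 1 to 2 in cortex and 1 to 4 in endodermis for 20 h over 8 h, 0 to 1 in epidermis for 32 h over 20 h, and 1 to 4 in endodermis and 2 to 5 in stele for 8 h over 3 h. Genes called lower were 0 to 1 in epidermis and 1 to 2 in endodermis for 32 h over 20 h, 0 to 1 in endodermis for 8 h over 3 h and for 20 h over 8 h, and 1 to 2 in stele for 20 h over 8 h. Pathway genes called higher in the cortex were 0 to 2. Of 924 single changes, 885 kept their side of the threshold, 20 gained a call and 19 lost one. Standard 1 h in place of standard 48 h moved 24 of 28 differences by at least 1 SD of the salt 48 h group. The spread of the standard groups themselves did not enter that count.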
